A study of Mus musculus with 8 samples.

Results

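The BCL2 family survival and death genes were described here by 10 genes, chosen by name from the 27594 genes listed in the deposited count table. They are the pro-survival genes Bcl2, Bcl2l1 (BCL-XL) and Mcl1, the pore-forming genes Bax and Bak1, and the BH3-only genes Bcl2l11 (BIM), Bbc3 (PUMA), Pmaip1 (NOXA), Bid and Bad. All 10 were found once in the table and all 10 passed the filter on low counts. RNA was sequenced from resting Treg (rTreg) and activated Treg (aTreg) cells of C57BL/6 mice aged 6 to 8 weeks, sorted as CD4+YFP+ cells from spleen and peripheral lymph nodes. The rTreg gate was CD44low and the aTreg gate CD44high, each set together with a second surface marker. WT mice carried Foxp3-YFP-Cre, and Foxp1-deficient (cKO) mice carried Foxp1fl/fl Foxp3-YFP-Cre. The Cre and YFP are expressed from the Foxp3 locus and therefore act in cells that express Foxp3, and the controls carry them too. Each of the 4 groups, WT rTreg, cKO rTreg, WT aTreg and cKO aTreg cells, has 2 libraries.

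Proteins of the BCL2 family decide whether the outer mitochondrial membrane stays intact. BAX and BAK form pores that let cytochrome c out, pro-survival members hold these effectors and the BH3-only proteins in check, and BH3-only proteins are induced or activated by stress signals and loss of growth factors. Treg cells are known to depend on MCL1 and on interleukin 2 signals, and BIM is known as the main BH3-only protein that limits their number.

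Between 6373170 and 15268623 counts fell on genes in a library, with a median of 12327710, and 3 counts, taken as the floor, correspond to 0.192 to 0.478 CPM (counts scaled by library size). Floors and intervals on counts cover counting error only. Foxp1, the deleted gene, was at 339.9 ± 2.97 CPM (SD, n = 2) in cKO rTreg cells against 368.6 ± 21.4 CPM in WT rTreg cells. In aTreg cells it was at 113.8 ± 17.3 CPM against 232.4 ± 2.96 CPM. The fall passed the test in aTreg cells (log2 fold change -1.03, adjusted p = 0.00194, edgeR quasi-likelihood test) but not in rTreg cells (-0.12, adjusted p = 0.460). Counts over the whole Foxp1 gene thus did not by themselves check the genotype labels of the rTreg libraries. The 6 Treg and CD4 T cell markers summed to 2790 to 4320 CPM. Cd44 was at 29.6 to 45.3 CPM in rTreg and 174 to 214 CPM in aTreg libraries. Markers of B cells, CD8 T cells, NK cells, myeloid cells and erythroid cells each summed to at most 20.1 CPM. The 4 granulocyte markers summed to at most 0.368 CPM in WT rTreg cells, with Mpo and Elane at 0, and to 5.13 to 11.6 CPM in cKO rTreg cells. They summed to 1.92 to 2.63 CPM in WT aTreg cells and to 2.59 and 24.7 CPM in cKO aTreg cells. Their part in the genotype results was not tested. Replicate 2 had 15098 to 21822 counts of Xist in every group and replicate 1 at most 3, so the replicate numbers also differ in sex. The test compares libraries of equal replicate number by a block for that number. The study also analysed paired samples, but what defined its pairs is not stated in the sources used here.

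The upstream sequence of the 2 genes that fell together most in aTreg cells, Bcl2 and Bcl2l11, is shown to give their starts as the reference has them. It is the 250 bases before the RefSeq start in GRCm38.p6, for Bcl2 chr1:106714291-106714540 on the minus strand and for Bcl2l11 chr2:128125788-128126037 on the plus strand. Bcl2l11 has a further RefSeq start, which is not shown. Capitals mark the forkhead core TGTTTA, read on either strand.
Bcl2: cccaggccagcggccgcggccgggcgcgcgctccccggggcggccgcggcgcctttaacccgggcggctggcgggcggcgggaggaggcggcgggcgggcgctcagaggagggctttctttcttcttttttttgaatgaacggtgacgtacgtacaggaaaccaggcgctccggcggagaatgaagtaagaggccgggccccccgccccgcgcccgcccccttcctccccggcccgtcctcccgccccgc
Bcl2l11: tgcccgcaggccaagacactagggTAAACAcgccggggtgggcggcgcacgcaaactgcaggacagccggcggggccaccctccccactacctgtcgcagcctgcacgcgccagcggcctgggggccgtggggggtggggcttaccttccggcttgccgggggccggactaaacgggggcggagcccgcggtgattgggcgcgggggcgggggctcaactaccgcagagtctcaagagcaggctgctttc
FOXP1 belongs to the forkhead family, whose proteins bind such a core, and STAT5 acts downstream of interleukin 2 at sites of the form TTCNNNGAA. The search covered 250 bases before to 50 after each start and both strands. Matches to the forkhead core were present at position -226 from 1 start of Bcl2l11 and at position -167 from 1 start of Bbc3, against 13.4% of 32851 promoters in the table. The other start of Bcl2l11 (upstream chr2:128127325-128127574) and the other starts of Bbc3 had no match. Whether the members differ from the share over all promoters was not tested. No match stood at the starts listed for Bcl2, Bcl2l1, Mcl1, Bax, Bak1, Bid or Bad. The STAT letters, present in 8.3% of all promoters, matched at none of the member starts in the table. Pmaip1 was not searched.

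The levels of the 10 genes spanned a wide range in every group, with Mcl1 always highest. Levels of different genes were compared per gene length, as the deposited FPKM values. In WT rTreg cells, Mcl1, a short-lived pro-survival protein, was at 299.5 ± 16.7 FPKM (SD, n = 2) and Bcl2 followed at 75.6 ± 4.14. Bax was at 39.3 ± 5.41, Bbc3 at 29.2 ± 9.15, Bcl2l11 at 22.4 ± 1.55 and Bak1 at 11.5 ± 2.43 FPKM. Bcl2l1 (7.58 ± 2.44), Bid (6.63 ± 0.47) and Bad (6.01 ± 1.05) overlapped with their neighbours in this order, and Pmaip1 was last with 3.36 ± 1.69 FPKM. Bax and Bbc3, and Bbc3 and Bcl2l11, overlapped as well. The order in cKO rTreg cells was the same except that Bad (6.76 ± 1.82 FPKM) stood before Bid (4.66 ± 0.53).
In aTreg cells Bcl2 took the fourth place, at 27.8 ± 1.29 FPKM in WT and 21.6 ± 1.75 in cKO cells, behind Mcl1, Bax and Bbc3. In WT aTreg cells it overlapped with Bbc3 (27.8 ± 2.08 FPKM). Bcl2l11 went from the fifth place to the last, at 8.14 ± 0.12 FPKM in WT and 9.71 ± 0.415 in cKO aTreg cells. Between the fifth and the last place of WT aTreg cells, each gene overlapped with the next. The same held from the fourth place on in cKO aTreg cells.

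**Figure D1:**
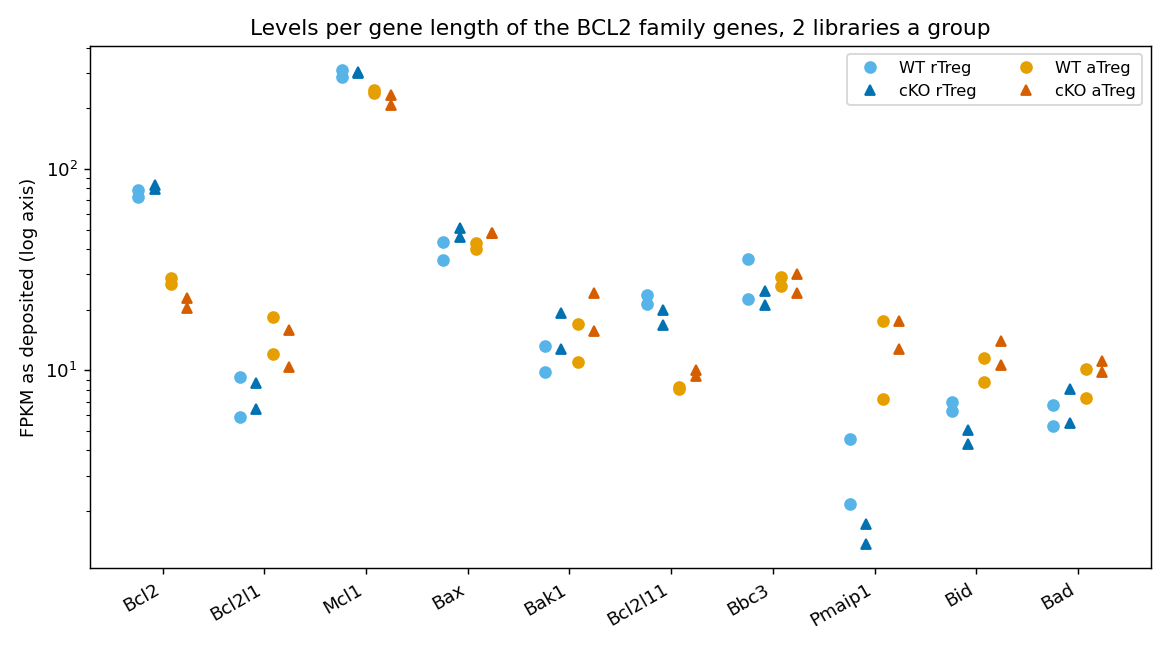
Level of each gene per gene length (FPKM as deposited, log axis), with a point for each library and 2 libraries a group. Mcl1 is highest in all 8 libraries, Bcl2 and Bcl2l11 are lower in both aTreg groups, and Pmaip1 is lowest in both rTreg groups.

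Mcl1 took most of the summed FPKM of the 3 pro-survival genes, 76.4% to 78.7% in rTreg libraries and 84.1% to 88.3% in aTreg libraries. The share of Bcl2 was 19.7% to 21.3% in rTreg and 7.76% to 10% in aTreg libraries, and that of Bcl2l1 1.48% to 2.52% against 3.95% to 6.49%. The ranges of the subsets did not overlap for any of the 3 genes. Among the 5 BH3-only genes, Bcl2l11 took 28.6% to 38.8% of the summed FPKM in rTreg and 11.1% to 13.3% in aTreg libraries. Pmaip1 took 2.79% to 6.11% in rTreg and 11.9% to 23.9% in aTreg libraries. The pro-survival shares leave out Bcl2a1d, a further pro-survival gene. It was at 2.13 to 8.06 FPKM in rTreg libraries, 43.7 and 17.8 in WT aTreg and 36.5 and 34.4 in cKO aTreg libraries. These shares are descriptions of transcripts and do not give amounts of protein.

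The first comparison asked how the family differs between resting and activated Treg cells. In WT cells, 7 of the 10 genes passed the test (edgeR quasi-likelihood test, Benjamini-Hochberg adjusted p under 0.05 over 14540 genes). Bcl2l1, Pmaip1, Bid and Bad were higher in aTreg cells, and Bcl2, Mcl1 and Bcl2l11 were lower. Of all genes tested, 18.2% were called higher and 13.6% lower. Bcl2, Bcl2l11 and Pmaip1 also passed 2-fold, which 12.3% of all genes did with the adjusted p. In cKO cells, 8 genes passed, the same 7 in the same directions and Bak1, against 21.9% called higher and 18.2% called lower among all genes. Bcl2, Pmaip1 and Bid passed 2-fold there, against 15.7% of all genes. The median log2 fold change of the 10 genes was 0.13 in WT and 0.24 in cKO cells, against -0.0046 and -0.018 over all genes tested. Without the replicate block the counts were 3 in WT cells (Bcl2, Bcl2l11 and Pmaip1), against 16.3% of all genes, and 5 in cKO cells, where Mcl1 and Bid also stayed, against 23.9%. In bulk samples, less RNA per cell and fewer cells of a kind within the gate cannot be told apart.

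Bcl2 (chr1:106538178-106714274, minus strand, GRCm38) encodes the protein after which the family is named. It was at 660.5 and 738 CPM in WT rTreg, 776.5 and 759.8 in cKO rTreg, 239 and 257 in WT aTreg, and 204 and 190 in cKO aTreg libraries, each pair given as replicates 1 and 2. Every rTreg library was far above every aTreg library, and the genotypes stood in opposite order in the 2 subsets. The level was 2.82-fold lower in WT aTreg cells (log2 fold change -1.5 ± 0.072, SE, adjusted p = 1.22e-05, edgeR) and 3.90-fold lower in cKO aTreg cells (-1.96 ± 0.074, adjusted p = 2.88e-06). 
Mcl1 (chr3:95658788-95663176, plus strand) was at 976 and 1092 CPM in WT rTreg and 1038 and 1072 in cKO rTreg libraries, and at 796 and 822 in WT aTreg and 694 and 807 in cKO aTreg libraries. No aTreg library reached the lowest rTreg library, although the fold was small, with log2 fold changes of -0.35 ± 0.056 in WT (adjusted p = 0.00258, edgeR) and -0.49 ± 0.057 in cKO cells (adjusted p = 3.64e-04). Without the block the adjusted p in WT cells was 0.0542.
Bcl2l1 (chr2:152780668-152831728, minus strand) encodes BCL-XL, a pro-survival member known to be induced by T cell activation. It moved against Bcl2 and Mcl1, from 42.4 and 27.6 CPM in WT rTreg to 82.5 and 54.3 in WT aTreg libraries. In cKO cells it went from 40.5 and 30.7 to 70.2 and 48.4 CPM. Replicate 1 was higher in each group, and within each replicate number the aTreg library was higher. The log2 fold changes were 0.97 ± 0.077 in WT (adjusted p = 9.61e-05, edgeR) and 0.72 ± 0.079 in cKO cells (adjusted p = 2.92e-04). Without the block the adjusted p-values were 0.0723 and 0.122.

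**Figure D2:**
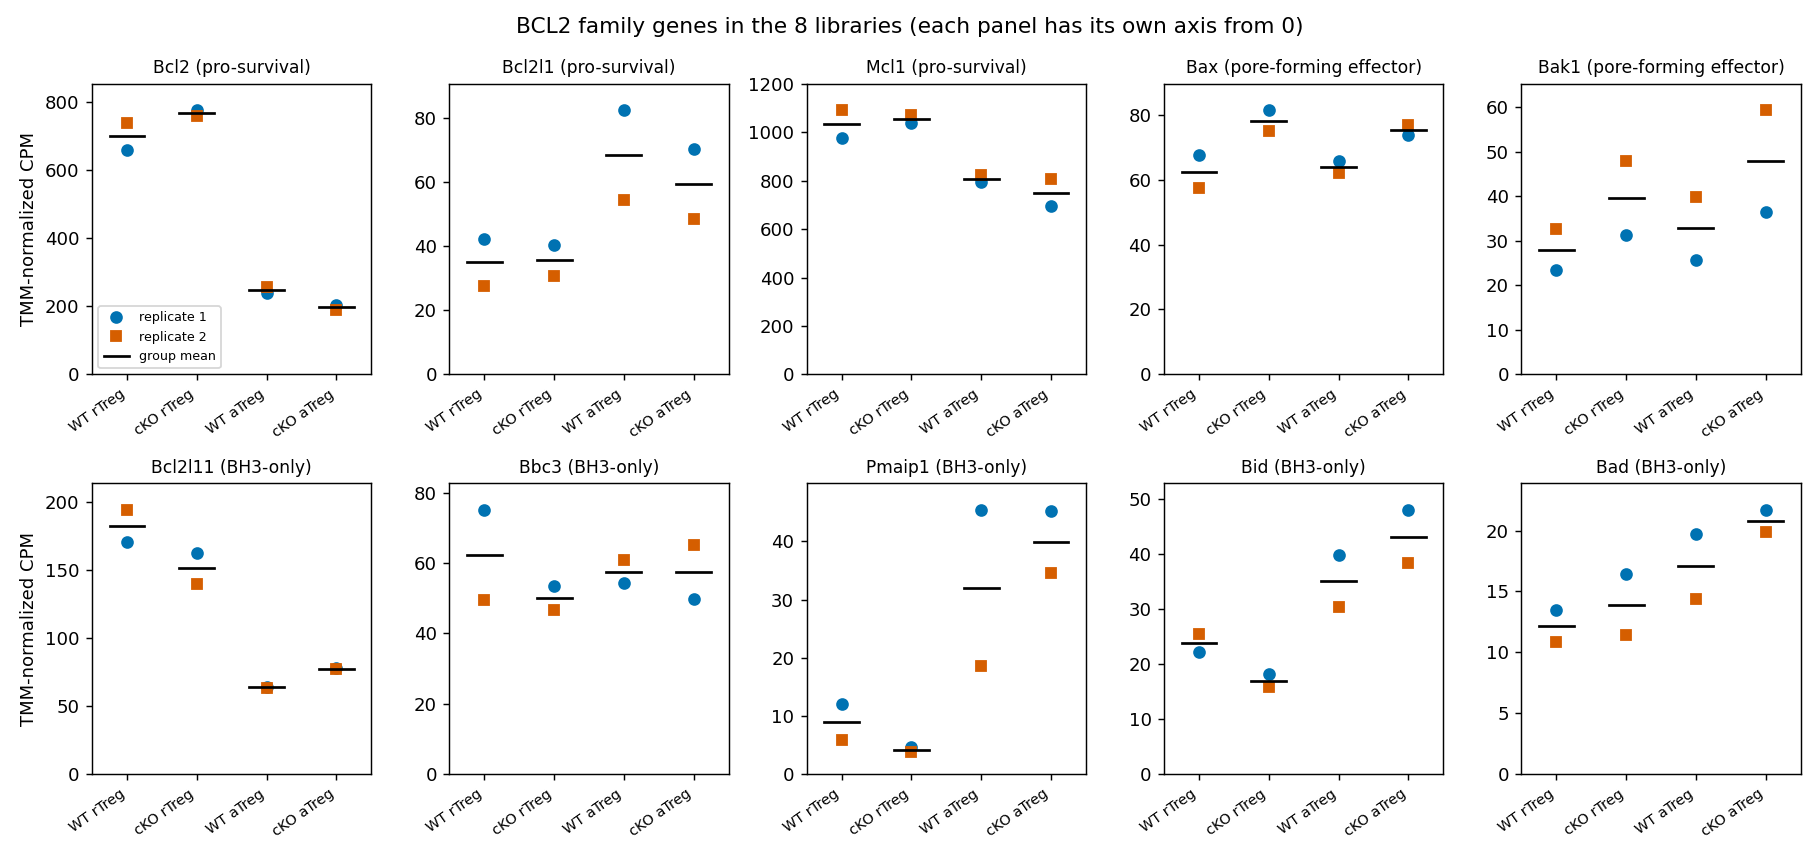
TMM-normalized CPM of each gene in the 8 libraries, with circles for replicate 1, squares for replicate 2 and a line at the mean of each group of 2. Bcl2, Mcl1 and Bcl2l11 are lower and Bcl2l1, Pmaip1, Bid and Bad higher in every aTreg library than in the rTreg libraries of the same genotype, while the replicates of Bak1 are ordered alike in all 4 groups. The share of all genes whose subsets are separated in this way was not counted.

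Bcl2l11 (chr2:128126038-128162547, plus strand) encodes BIM, which binds all the pro-survival proteins. It was at 170 and 194 CPM in WT rTreg, 163 and 139.9 in cKO rTreg, 64.2 and 63.3 in WT aTreg, and 78.0 and 76.9 in cKO aTreg libraries. The 4 groups did not overlap, and the cKO values lay between the 2 WT groups. Bcl2l11 was 2.86-fold lower in WT aTreg cells (log2 fold change -1.52 ± 0.095, adjusted p = 3.33e-05, edgeR) and 1.95-fold lower in cKO aTreg cells (-0.96 ± 0.094, adjusted p = 1.71e-04).
Pmaip1 (chr18:66458533-66465565, plus strand) encodes NOXA, which binds MCL1 above all. It had the largest rise of the 10 genes in both genotypes. Its CPM were 11.97 and 5.89 in WT rTreg, 4.62 and 3.75 in cKO rTreg, 45.4 and 18.6 in WT aTreg, and 45.3 and 34.5 in cKO aTreg libraries. Its counts ran from 29 to 540, all above the floor of 3 counts. The rise was 3.47-fold in WT (log2 fold change 1.80 ± 0.234, adjusted p = 9.76e-04, edgeR) and 9.24-fold in cKO cells (3.21 ± 0.263, adjusted p = 7.10e-05).
Bid (chr6:120891930-120916853, minus strand) encodes the BH3-only protein that caspase 8 cleaves and so links death receptors to mitochondria. It went from 22.2 and 25.4 to 39.8 and 30.3 CPM in WT and from 18.2 and 15.8 to 48.0 and 38.3 CPM in cKO cells. The log2 fold change was 0.54 ± 0.142 in WT (adjusted p = 0.0238, edgeR) and 1.34 ± 0.148 in cKO cells (adjusted p = 3.09e-04). The WT call was lost without WT rTreg replicate 1 (0.30, adjusted p = 0.150), without WT aTreg replicate 1 (0.40, adjusted p = 0.154) and without the block (adjusted p = 0.0811). Of the exon bases of Bid, 17.7% lie under exons of Bcl2l13 on the other strand, which had 434 to 1011 counts against 114 to 573 for Bid, and whether strand was used in the counting is not given in the sources used here.
Bad (chr19:6941861-6951899, plus strand) encodes a BH3-only protein held inactive by survival kinases. It was at 10.8 to 16.4 CPM in rTreg and 14.4 to 21.7 CPM in aTreg libraries, and rose by a log2 fold change of 0.48 ± 0.138 in WT (adjusted p = 0.0331, edgeR) and 0.61 ± 0.138 in cKO cells (adjusted p = 0.00935). Within each genotype the subsets did not overlap. Leaving out any 1 of the 4 WT libraries ended the WT call (adjusted p = 0.0641 to 0.184). The cKO call was lost without cKO rTreg replicate 2 (0.49, adjusted p = 0.102) or cKO aTreg replicate 2 (0.46, adjusted p = 0.0867). Without the block the adjusted p-values were 0.223 and 0.113, and DESeq2 gave 0.122 in WT cells. Exons of Gpr137 on the other strand, which had 85 to 273 counts against 103 to 277 for Bad, cover 20.5% of the exon bases of Bad.
Bbc3 (chr7:16308393-16318205, plus strand) encodes PUMA, a target of p53 that binds all the pro-survival proteins. It was at 46.6 to 75.2 CPM in rTreg and 49.8 to 65.3 CPM in aTreg libraries, and the subsets overlapped in both genotypes. Its log2 fold changes were -0.099 in WT (95% interval -0.566 to 0.369) and 0.22 in cKO cells (-0.261 to 0.694), with adjusted p-values of 0.752 and 0.442 (edgeR). Among the edgeR, limma-voom and DESeq2 alternatives, its lowest adjusted p in cKO cells was 0.0121.

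Of the pore-forming genes, Bax (chr7:45461697-45466898, minus strand) did not pass in either genotype. Its log2 fold change was 0.035 in WT (95% interval -0.149 to 0.219) and -0.049 in cKO cells (-0.231 to 0.133), with adjusted p-values of 0.778 and 0.657 (edgeR). The subsets overlapped in both genotypes. Bak1 (chr17:27019810-27029009, minus strand) encodes the effector that sits in the mitochondrial membrane of healthy cells. It rose in cKO cells (0.27 ± 0.083, adjusted p = 0.0353, edgeR) and had a value of 0.22 ± 0.086 in WT cells (adjusted p = 0.0940). The cKO call was lost without WT aTreg replicate 2, without either cKO rTreg library and without either cKO aTreg library (adjusted p = 0.0519 to 0.252). Without the block it was 0.619, and by DESeq2 0.144.

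**Figure D3:**
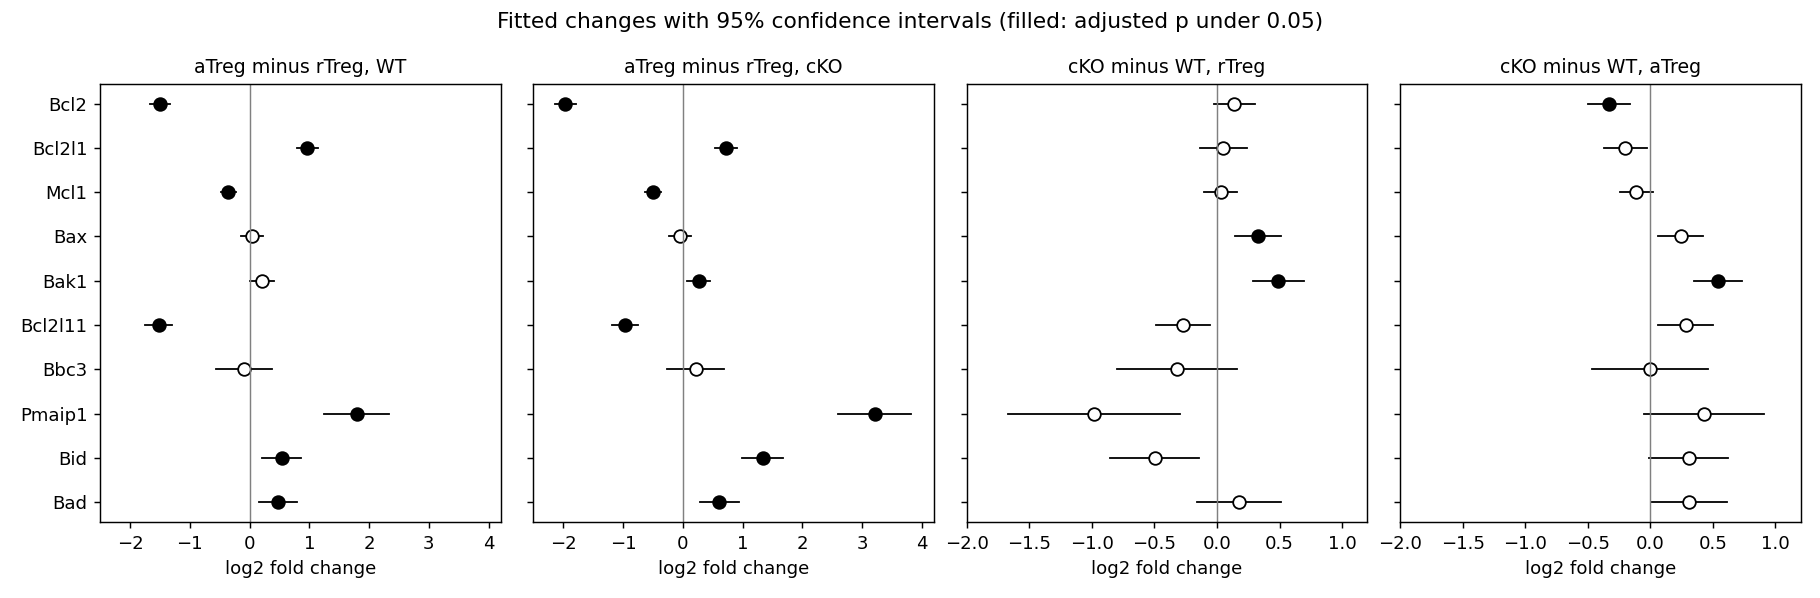
Fitted log2 fold change of each gene with its 95% confidence interval in the 4 comparisons, where filled points have an adjusted p under 0.05. The subset comparisons run from -1.96 (Bcl2) to 3.21 (Pmaip1) and the genotype comparisons from -0.98 to 0.54, and the axes differ between these pairs of panels.

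The second comparison asked what the loss of Foxp1 changes within each subset. In rTreg cells 2 of the 10 genes passed the test, Bax and Bak1, both higher in cKO cells, against 6.57% of all genes called higher and 5.45% called lower. In aTreg cells Bak1 passed as higher and Bcl2 as lower, against 4.11% and 2.77% of all genes. None of these reached 1.5-fold, which 5.60% of all genes did with the adjusted p in rTreg and 4.03% in aTreg cells. At an unadjusted p under 0.05 there were 5 members in rTreg and 6 in aTreg cells, against 28.5% and 23.3% of all genes. None of the 10 passed in either subset without the replicate block, when 2.06% of all genes passed in rTreg and 0.557% in aTreg cells. The median log2 fold change of the members was 0.040 in rTreg and 0.26 in aTreg cells, against 0.0029 and 0.0019 over all genes tested. These 2 comparisons share no library with each other, but each shares 2 libraries with each subset comparison.

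Bak1 was at 23.4 and 32.7 CPM in WT rTreg, 31.2 and 48.0 in cKO rTreg, 25.7 and 39.9 in WT aTreg, and 36.5 and 59.4 in cKO aTreg libraries. The genotype groups overlapped, but within each replicate number the cKO library was higher in both subsets. The log2 fold change was 0.49 ± 0.087 in rTreg (adjusted p = 0.0130, edgeR) and 0.54 ± 0.083 in aTreg cells (adjusted p = 0.0119). Without the block the adjusted p-values were 0.519 and 0.592. The rTreg call was lost without WT rTreg replicate 2 (adjusted p = 0.153), cKO rTreg replicate 1 (0.0699) or cKO rTreg replicate 2 (0.132). The aTreg call was lost without WT aTreg replicate 2 (0.0857) or cKO aTreg replicate 2 (0.144). Exons of Ggnbp1 on the other strand, which had 30 to 60 counts, cover 18.2% of the exon bases of Bak1.
Bax encodes the effector that moves from the cytosol to mitochondria. It was at 67.5 and 57.4 CPM in WT rTreg, 81.4 and 75.0 in cKO rTreg, 65.7 and 62.0 in WT aTreg, and 73.8 and 77.0 in cKO aTreg libraries. Every cKO library was above every WT library. The log2 fold change was 0.33 ± 0.079 in rTreg cells (adjusted p = 0.0387, edgeR) and 0.24 ± 0.078 in aTreg cells (adjusted p = 0.112). The rTreg call was lost when any 1 of the WT rTreg, WT aTreg or cKO rTreg libraries was left out (adjusted p = 0.0503 to 0.288), without the block (0.181) and by DESeq2 (0.0921).

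Bcl2 fell in cKO aTreg cells by 0.33 on the log2 scale (-0.33 ± 0.072, adjusted p = 0.0352, edgeR), and was at 0.14 ± 0.071 in cKO rTreg cells (adjusted p = 0.254). The aTreg call was lost without either WT aTreg library, either cKO rTreg library or cKO aTreg replicate 2 (adjusted p = 0.0616 to 0.269). It was also lost without the block (0.195) and in a fit of the aTreg libraries alone (0.0961).
The other pro-survival genes did not pass in either subset. Bcl2l1 had log2 fold changes of 0.050 in rTreg (95% interval -0.139 to 0.239) and -0.20 in aTreg cells (-0.37 to -0.026). Mcl1 had 0.031 (-0.100 to 0.162) and -0.11 (-0.243 to 0.019).

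The 5 BH3-only genes had 0 calls between genotypes by edgeR in both subsets, and 3 in rTreg and 2 in aTreg cells had an unadjusted p under 0.05 (28.5% and 23.3% of all genes). In rTreg cells Pmaip1 had a log2 fold change of -0.98 ± 0.297 (adjusted p = 0.0729, edgeR), Bid -0.50 ± 0.153 (0.0754) and Bcl2l11 -0.27 ± 0.092 (0.0978), and the WT and cKO rTreg libraries did not overlap for these 3 genes, as for 45.2% of all genes tested. Pmaip1 was called by DESeq2 (adjusted p = 0.0273), by edgeR in the rTreg libraries alone (0.0434) and by edgeR without WT aTreg replicate 1 (0.0282) or 2 (0.0274), and Bid by edgeR without WT rTreg replicate 1 (0.0282). All 3 were called by edgeR without a filter on low counts (adjusted p = 0.00254 for Pmaip1, 0.0129 for Bid and 0.0199 for Bcl2l11). How many of all genes these alternatives called is not given here.
In aTreg cells the same 3 genes had values above 0. They were 0.43 ± 0.206 for Pmaip1 (adjusted p = 0.259, edgeR), 0.31 ± 0.136 for Bid (0.228) and 0.28 ± 0.095 for Bcl2l11 (0.126). Among the edgeR, limma-voom and DESeq2 alternatives, the lowest adjusted p of Bcl2l11 was 0.0338, while Pmaip1 and Bid were called in none. Bad had 0.17 ± 0.144 in rTreg and 0.31 ± 0.132 in aTreg cells (adjusted p = 0.480 and 0.212). Bbc3 had -0.32 ± 0.207 in rTreg and -0.0012 ± 0.2 in aTreg cells (adjusted p = 0.365 and 0.999).

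The difference between the genotype effects of the subsets was tested as an interaction in the same fit. By edgeR, 0 of the 10 genes passed, against 0.186% of all genes called higher and 0.144% called lower, and 4 members had an unadjusted p under 0.05, as did 1862 of all genes (12.8%). These 4 were Bcl2 (aTreg effect minus rTreg effect -0.47 ± 0.100 on the log2 scale, adjusted p = 0.104), Bcl2l11 (0.56 ± 0.133, adjusted p = 0.134), Bid (0.81 ± 0.205, adjusted p = 0.153) and Pmaip1 (1.41 ± 0.361, adjusted p = 0.155). DESeq2 called Bcl2, Bcl2l11 and Pmaip1 (adjusted p = 0.0131, 0.0489 and 0.0383), and edgeR without a filter on low counts called all 4. The share of all genes that these alternatives called is not given here, and the shares above belong to the main fit. Pmaip1 was also called without WT aTreg replicate 1 (1.82, adjusted p = 0.0449).
For 3 of these genes the pairs of equal replicate number moved in opposite directions in the subsets. The genes were picked by their interaction p-values, which favours such signs, and the share of all genes with them was not counted. The cKO minus WT difference of Bcl2 in log2 CPM was 0.233 and 0.042 in rTreg and -0.231 and -0.435 in aTreg cells. That of Bcl2l11 was -0.066 and -0.472 against 0.282 and 0.281, and that of Bid -0.285 and -0.681 against 0.270 and 0.337. Bcl2 thus had the reverse signs of the 2 BH3-only genes.

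The transcript ratio of Bcl2 to Bcl2l11 brings these values together within a library, since a ratio of FPKM from the same library does not depend on its depth. This ratio restates the values of both genes and is not a separate result. It was 3.40 and 3.33 in WT rTreg and 3.26 and 3.56 in WT aTreg libraries, although the genes were 2.82-fold and 2.86-fold lower in WT aTreg cells. In cKO cells it was 4.19 and 4.76 in rTreg but 2.29 and 2.17 in aTreg libraries. The 4 WT libraries lay between the 2 cKO groups without overlap. With 2 libraries against 2, an exact permutation test cannot reach 0.05, and no test was run on the ratios.
The ratio of Mcl1 to Bcl2l11 was 13.5 and 13.2 in WT rTreg, 14.99 and 18 in cKO rTreg, 29.1 and 30.5 in WT aTreg, and 20.9 and 24.6 in cKO aTreg libraries. It was higher in aTreg than in rTreg cells in both genotypes, and the cKO groups lay between the WT groups.
The ratio of Bcl2 to Bax was above 1 in all rTreg libraries (1.64 to 2.21) and below 1 in all aTreg libraries, at 0.626 and 0.713 in WT and 0.475 and 0.425 in cKO cells. The ratio of Mcl1 to Pmaip1 was 63.1 and 143.5 in WT rTreg and 174 and 221 in cKO rTreg libraries, and 13.6 and 34.2 in WT aTreg and 11.9 and 18.1 in cKO aTreg libraries.

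**Figure D4:**
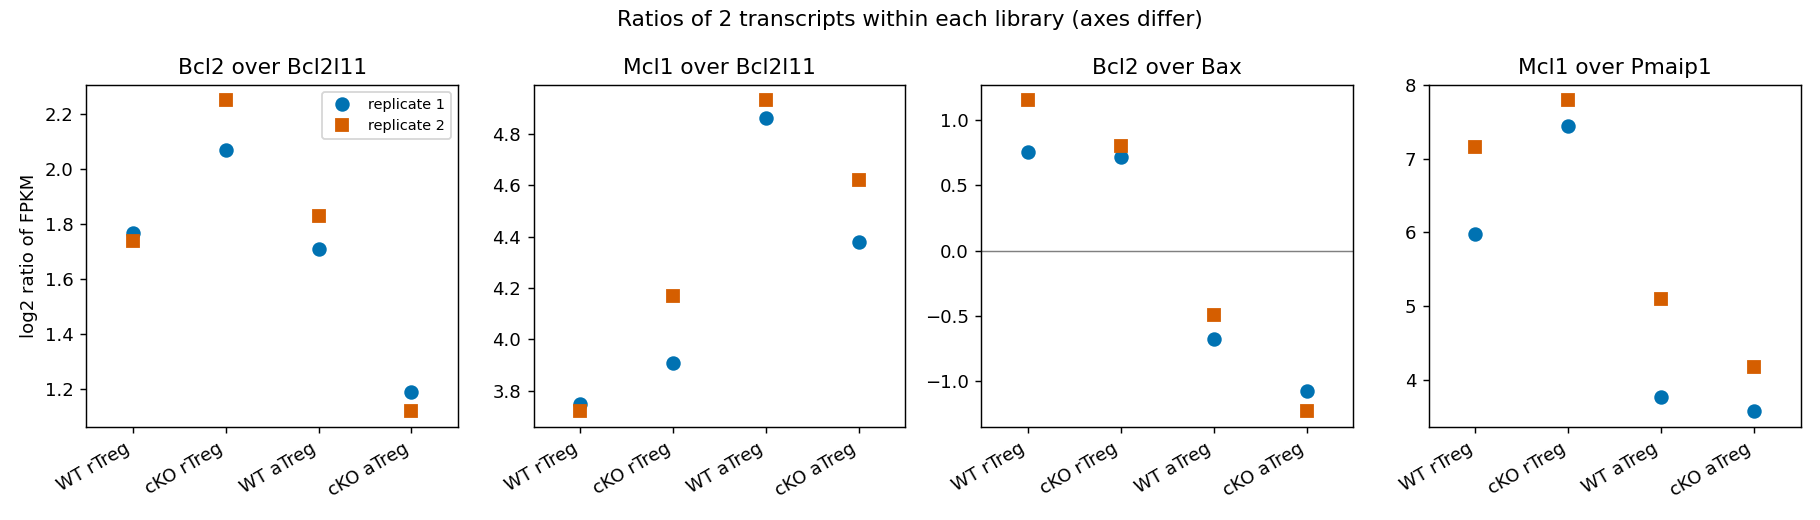
Log2 ratio of the FPKM of 2 transcripts in each library, with circles for replicate 1 and squares for replicate 2, and axes that differ between panels. For Bcl2 over Bcl2l11 the 4 WT libraries lie between the cKO rTreg libraries (2.07 and 2.25) and the cKO aTreg libraries (1.19 and 1.12).

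The 2 libraries of a group differed in a like manner in all groups for several of the genes. Bak1 was higher in replicate 2 in all 4 groups, by 0.481 to 0.699 in log2 CPM, which is of the size of its genotype effects (0.49 and 0.54). Bcl2l1 was lower in replicate 2 in all 4 groups, by a log2 difference of -0.619 to -0.401. Pmaip1 (-1.29 to -0.31) and Bad (-0.527 to -0.125) were lower in replicate 2 throughout, and Mcl1 was higher by 0.046 to 0.217. Bcl2, Bax, Bcl2l11, Bbc3 and Bid had differences of both signs. Sex, a sequencing round and any other feature that goes with the replicate number cannot be told apart here. None of the calls of Bak1 and Bcl2l1 was kept without the block.

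**Figure D5:**
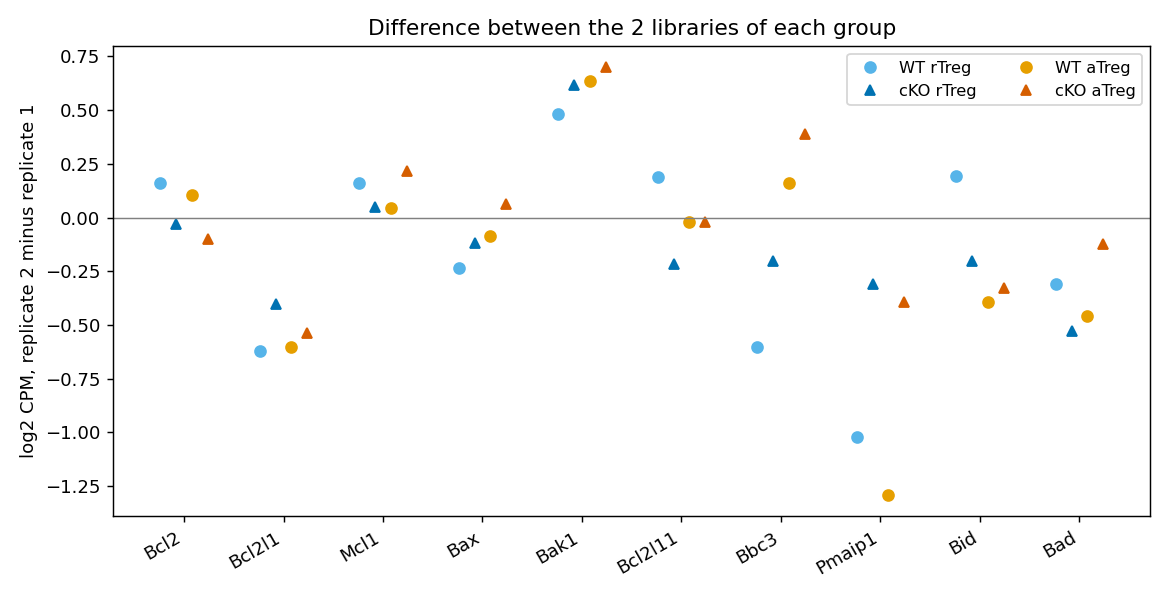
Difference in log2 CPM between replicate 2 and replicate 1 of each group, for the 10 genes. Bak1 lies above 0 in all 4 groups, and Bcl2l1, Pmaip1 and Bad lie below 0 in all 4 groups.

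Other genes of the pathway were taken from lists of 62 genes that are not members. Among further pro-survival genes (5 listed, 3 tested), Bcl2a1d rose in aTreg cells by log2 fold changes of 2.56 in WT and 2.81 in cKO cells (adjusted p = 0.00252 and 0.00126, edgeR) and Bcl2a1b by 2.53 and 1.55 (0.00635 and 0.0173). Bcl2a1d had 24 to 75 counts in rTreg and 235 to 420 counts in aTreg libraries. The Bcl2a1 genes are near-identical copies that share reads, so their split is uncertain. Bcl2l2, which encodes BCL-W, rose in cKO cells (1.2, adjusted p = 0.0269, or 0.0526 without the block). Bcl2a1a, Bcl2l10 and Hrk were at or under 3 counts in every library.
In the list of BCL2-like genes (5 listed, 4 tested), Bcl2l15 was the 1 gene called in the subset comparisons. It had 1 and 2 counts in WT rTreg, 0 and 5 in cKO rTreg, 38 and 105 in WT aTreg, and 24 and 44 in cKO aTreg libraries. In WT cells the ratio of its summed counts, scaled to library size, was 45.5 (95% exact binomial interval 15.3 to 223, counting error only). Between genotypes, 0 of the 7 tested genes of these 2 lists passed by edgeR, with 1 at an unadjusted p under 0.05 in rTreg and 2 in aTreg cells (28.5% and 23.3% of all genes).
Of the further BH3-only and BNIP3-type genes (7 listed, 6 tested), Bmf, which encodes a BH3-only protein tied to the cytoskeleton, rose in WT aTreg cells (0.86, adjusted p = 0.00445, edgeR). It fell in cKO aTreg cells against WT aTreg cells (-0.93 ± 0.153, adjusted p = 0.0155, or 0.0785 without the block). Its level was 14.5 and 14.1 CPM in WT aTreg and 6.79 and 8.19 CPM in cKO aTreg libraries. In cKO rTreg cells Bmf had -0.51 ± 0.172 (adjusted p = 0.100). In aTreg cells, but not in rTreg cells, its value had the sign opposite to those of Bcl2l11, Bid and Pmaip1. Bik had 3 and 2 counts in cKO rTreg and 25 and 26 counts in cKO aTreg libraries, a scaled ratio of 7.94 (95% exact binomial interval 3.19 to 25.5).

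Downstream of the mitochondria, 4 of 12 genes rose and 1 fell in WT aTreg cells, and 6 rose and 3 fell in cKO aTreg cells. Of all genes, 18.2% rose and 13.6% fell in WT aTreg cells, and 21.9% rose and 18.2% fell in cKO aTreg cells. Htra2, a mitochondrial protease, rose by a log2 fold change of 0.54 in WT cells (adjusted p = 0.00768, edgeR). Apaf1, the scaffold of the apoptosome, rose by 0.91 in cKO cells (adjusted p = 7.08e-05). Between genotypes, Apaf1 was the 1 gene of this list that passed, in aTreg cells (0.36 ± 0.072, adjusted p = 0.0290, edgeR, or 0.223 without the block). Of all genes, 4.11% were called higher there.
Among 6 inhibitors of apoptosis, 3 rose and 2 fell in each subset comparison, against the same shares of all genes. The largest change was that of Naip2 (2.84 in WT and 3.62 in cKO cells). Naip2 encodes a sensor of bacterial proteins rather than a caspase inhibitor. Birc5 (survivin), which is also a component of the mitotic machinery, rose in aTreg cells by 1.95 and 1.36 (adjusted p = 0.0532 in cKO cells without the block). It was also higher in cKO cells, by 2.19 ± 0.339 in rTreg (adjusted p = 0.00820, edgeR) and 1.60 ± 0.250 in aTreg cells (adjusted p = 0.0127). Without the block the adjusted p-values between genotypes were 0.0698 and 0.174. Birc5 had 13 and 14 counts in WT rTreg and 26 and 88 counts in cKO rTreg libraries.

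Of 9 genes of the death receptor pathway, 0 rose and 3 fell in WT aTreg cells, and 1 rose and 4 fell in cKO aTreg cells (edgeR). Of all genes, 18.2% rose and 13.6% fell in WT aTreg cells, and 21.9% rose and 18.2% fell in cKO aTreg cells. Casp8, the initiator caspase of this pathway, fell by 0.77 and 0.82 on the log2 scale (adjusted p = 1.47e-04 and 7.24e-05), in contrast to the rise of its substrate Bid. Fas fell by 0.41 and 0.65 on the log2 scale, Ripk1 by 0.44 in WT and Tnfrsf1a by 0.64 in cKO cells. The WT calls of Fas (adjusted p = 0.160) and Ripk1 (0.207) were lost without the block. Between genotypes, the TRAIL receptor Tnfrsf10b was lower in cKO rTreg cells (-0.91 ± 0.169, adjusted p = 0.0155) and Tnfrsf1a lower in cKO aTreg cells (-0.59 ± 0.112, adjusted p = 0.0247). Without the block these adjusted p-values were 0.0547 and 0.135.
Of 18 regulators of the family, 4 rose and 5 fell in WT aTreg cells and 5 rose and 6 fell in cKO aTreg cells. The shares of all genes in these comparisons were those given for the death receptor pathway. Cdkn1a, a p53 target, rose by 1.89 and 2.57, Hif1a by 1.29 and 1.21, Trp53inp1 by 0.64 in WT cells and Il7r by 1.32 in cKO cells. Those of Cdkn1a (adjusted p = 0.147) and Trp53inp1 (0.101) in WT cells and of Il7r in cKO cells (0.0555) were lost without the block. Between genotypes, 2 were higher and 2 lower in cKO rTreg cells, and 1 higher and 2 lower in cKO aTreg cells. Of all genes, 6.57% were higher and 5.45% lower in cKO rTreg cells, and 4.11% higher and 2.77% lower in cKO aTreg cells. In cKO rTreg cells, Il2rb, the receptor chain shared by interleukins 2 and 15, was lower (-0.48 ± 0.113, adjusted p = 0.0334, edgeR). Stat5b was higher (0.37 ± 0.051, adjusted p = 0.00492) and Foxo1, whose protein is known to activate Bcl2l11, was lower (-0.31 ± 0.065, adjusted p = 0.0217). In cKO aTreg cells Foxo1 (-0.29, adjusted p = 0.0385) and Il2ra (-0.27, adjusted p = 0.0429) were lower and Stat5b was higher (0.22, adjusted p = 0.0466). These 6 genotype values passed only with the block (adjusted p = 0.0544 to 0.526 without it).

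The genes whose log2 CPM followed those of the most variable members over the 8 libraries are given as a description, since the libraries share their groups and pairs. The group means of Pmaip1 spanned 3.23 and those of Bcl2 1.97 on the log2 scale. Pmaip1 was most like Ptger4 (Pearson r = 0.994, n = 8), a prostaglandin E2 receptor, Zc3h12c (0.992) and Rbpj (0.989), the nuclear partner of Notch. Ptger4 was at 72.4 to 125 CPM in rTreg and 172 to 259 CPM in aTreg libraries. It had the same higher values in replicate 1 as Pmaip1 in each group. Bcl2 was most like Rps24 (0.996), a ribosomal protein gene, Mvd (0.995), an enzyme of the mevalonate pathway, and 1700025G04Rik (0.994). 1700025G04Rik was at 40.2 to 48.9 CPM in rTreg and 5.17 to 8.40 CPM in aTreg libraries. Rps24 was at 726 to 792 CPM in rTreg and 507 to 545 CPM in aTreg libraries, with cKO above WT in rTreg and below WT in aTreg cells, the order that Bcl2 also had.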

How the data were processed

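The authors deposited whole-number read counts per Ensembl gene for the 8 libraries, without normalization, and FPKM values made from the same counts. Per the study's methods, reads were checked with FastQC, trimmed with trim_galore (phred 20, 20 bp), freed of duplicates with Picard and counted with htseq-count. The submitters' processing notes name HISAT2 2.0.5, HTSeq and mm10. Removal of duplicates lowers the counts of highly expressed genes. The study analysed paired samples against a batch effect, and the deviations of equal replicate numbers from their group means correlated at 0.344 to 0.567 over 14540 genes for each of the 6 pairs of groups, so the replicate number was a block.

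All 8 libraries entered 1 fit in edgeR 4.0.16 (R 4.3.3), with group means, the block, TMM factors, filterByExpr with a minimum count of 10 (13054 genes left out), glmQLFit and glmQLFTest. P-values were adjusted by Benjamini-Hochberg over all 14540 genes and a gene was called under 0.05. A second rule added the study's 1.5-fold between genotypes or 2-fold between subsets. CPM were scaled by TMM, a prior count of 0.5 was used for log2 CPM, and SE were derived from the fitted log2 fold change and its F statistic. The libraries of a group differ in sex by Xist and so are not from the same animal. How many animals a library holds is not stated. P-values measure the spread between these libraries, which may be partly technical. The alternatives were no block, limma-voom 3.58.1, DESeq2 1.42.0, size factors by the median of ratios, testing without the filter, the libraries of each comparison alone, and each of the 8 libraries left out. The fit was tested on simulated counts for 14097 genes, comparing genotypes in rTreg cells, where it called 80 of 100 genes changed 2-fold, 92 of 100 changed 4-fold and 6 others. Every simulated gene had the same spread, set in advance, and the simulated replicate effect had the form that the block models. The members called between genotypes stayed under 1.5-fold, a size that was not simulated. These shares therefore need not hold for the members.

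The members, the further lists and the rules were chosen with earlier results of these data known. The rule named all 10 members, Foxp1, up to 3 called genes of largest change per list and comparison, list genes at or under 3 counts in every library, and the 3 genes most like each of the 2 most variable members. Coordinates and exon overlaps are from GENCODE M21 (GRCm38), which holds 27479 of the 27594 identifiers; 87.9% of lengths implied by the FPKM equal its merged exons. They differ for Pmaip1 (2646 against 2732 bases) and Bad (2007 against 2558 bases), whose FPKM rest on the shorter length. Upstream sequences are from RefSeq (GRCm38.p6). Protein sequences were not used here, and results for a few further genes are not reported here.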

Additional observations from a re-analysis of the deposited data

How the results depend on the processing

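Of the members' results called in the main analysis, none changed sign under any alternative, and 99 kept and 15 lost their call under the alternatives that keep all libraries or those of the comparison alone, as did 123 and 29 when a library was left out. The fit without the replicate block called 0 members between genotypes in rTreg and 0 in aTreg cells, 3 between WT subsets and 5 between cKO subsets. Without a filter on low counts, 5 were called between genotypes in rTreg cells and 4 for the difference of the genotype effects, for which DESeq2 called 3. Over the alternatives, the count reached 3 between genotypes in aTreg cells and 9 between cKO subsets. How many of all genes passed under these alternatives is not given here. The aTreg libraries alone gave 1 call between genotypes. Leaving out 1 library gave 0 to 2 calls between genotypes in rTreg, 0 to 2 in aTreg, 5 to 7 between WT subsets, 6 to 8 between cKO subsets and 0 to 1 for the difference, with the remaining library of a group assumed to vary like the others. Some uncalled values changed sign. Several of these were near 0 in the main fit. Those of Bbc3 were -0.32 between genotypes in rTreg cells, 0.22 between cKO subsets and 0.31 for the difference. Bbc3 between genotypes in aTreg cells was 0.0027 by DESeq2, 0.00043 with median-of-ratios size factors and 0.0080 without the filter. With a library left out it ran from -0.334 to 0.274 there, from -0.673 to 0.057 in rTreg cells, from -0.441 to 0.289 between WT subsets, from -0.112 to 0.498 between cKO subsets and from -0.063 to 0.666 for the difference. Bax ran from -0.049 to 0.138 between WT subsets, from -0.156 to 0.055 between cKO subsets and from -0.194 to 0.018 for the difference. Between genotypes in rTreg cells Bcl2l1 ran from -0.051 to 0.129 and Mcl1 from -0.024 to 0.076, and for the difference Bak1 ran from -0.017 to 0.153 and Bad from -0.026 to 0.283. The cause of these changes was not tested. With 2 libraries a group and 29 counts in the shallowest Pmaip1 library, small changes of low genes are the least certain.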
